A study of Mus musculus with 24 samples.

Results

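The miR-297, miR-466, miR-467 and miR-669 families are groups of closely related mouse miRNAs, most of them encoded in a tandem array inside an intron of the gene Sfmbt2. All entries of the deposited count table whose name is one of these 4 numbers, with or without a letter or copy number, were taken, which gave 38 of the 510 listed miRNAs. They comprised 3 miR-297, 12 miR-466, 8 miR-467 and 15 miR-669 names. Of the 38, 15 had enough counts to be tested, 14 had counts but fell below the filter on low values, and 9 were listed at 0 in all libraries.

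The counts came from small RNA sequencing of mammary tissue of PyMT mice, F1 females on the FVB strain heterozygous for the polyoma middle T antigen under the MMTV promoter, which is active in mammary epithelium. Tumors of 3 PyMT mice were collected at each of weeks 6, 8, 10 and 12, which correspond to hyperplasia, to adenoma or mammary intraepithelial neoplasia, to early carcinoma, and to late carcinoma when the lung already holds metastases. Normal mammary glands of 3 age-matched FVB females without the transgene, and with no other treatment stated, served as controls at each week. The samples at the first 2 stages are described in the methods as still containing normal gland cells, and pieces of whole tissue were used in all 24 libraries.

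A miRNA is cut from a hairpin in a longer transcript and guides the silencing of mRNAs that pair with its seed, bases 2 to 8 of the mature sequence. Sfmbt2 encodes a Polycomb-group protein, is imprinted with expression from the paternal allele in early embryos and extraembryonic tissue, and is required for the development of the placenta. The array in its intron expanded in rodents, and its miRNAs are known from embryonic stem cells and the placenta. Because members arose by duplication, several are near-identical and occur in many copies, and counts filed under one name can include reads of another.

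In the mm9 annotation, Sfmbt2 lies on the plus strand at chr2:10292137-10516880. A single intron of it, chr2:10383100-10445571, held 68 hairpins of 31 members within 51.3 kb, and none of the hairpins lay on an exon. Within it, miR-669a had 13 hairpins, miR-466b and miR-467a had 9 each, and miR-297a, miR-466c and miR-466f had 3 each. A further 3 hairpins of miR-297a and 1 of miR-466f lay elsewhere. The other 7 members, miR-466i, miR-466j, miR-466k, miR-467f, miR-467g, miR-467h and miR-669n, were annotated only outside Sfmbt2, and all 7 were listed at 0 in every library.

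The mature sequences of these 7 members are shown because they display the repeats of the families. They are the members with an entry in the RefSeq table used here, and the sequences of the members in the Sfmbt2 intron, on which the results below turn, are not shown. For miR-466i the entry is the 3p arm, and the other 6 entries name no arm. They are RefSeq entries with GRCm38.p6 positions, written 5′ to 3′ with the seed in capitals.
miR-466k, chr3:85467396-85467418, plus strand: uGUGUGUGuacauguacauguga
miR-669n, chr3:115979905-115979924, plus strand: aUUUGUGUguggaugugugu
miR-467g, chr5:34732872-34732892, minus strand: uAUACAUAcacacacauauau
miR-467h, chr9:115381898-115381919, plus strand: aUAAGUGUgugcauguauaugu
miR-466j, chr10:60960802-60960824, plus strand: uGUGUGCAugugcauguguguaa
miR-467f, chr11:69635419-69635439, minus strand: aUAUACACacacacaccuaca
miR-466i-3p, chr13:17747552-17747573, plus strand: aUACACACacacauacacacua

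All 7 seeds were distinct. The run UGUGUG occurred in 4 of the 7 entries and ACACAC in the other 3, read on the mature strand only. Over the 1679 mature mouse entries of the same RefSeq table, 1.67% held UGUGUG and 0.655% held ACACAC. Of 88 other listed miRNAs annotated on the same 6 chromosomes, 66, or 75.0%, had at least 1 count. Inside Sfmbt2, miR-669g and miR-669j were at 0 as well. How reads that align to several places were treated is not given in the sources used here, so a listing at 0 is not evidence that no molecule was present.

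Total counts ranged from 1032241 to 2213972 in tumor libraries and from 1626022 to 3931375 in normal libraries. The members together received between 174 and 818 counts per tumor library, with a median of 382, and between 76 and 243 per normal library, with a median of 183. Levels below are counts divided by the total counts of the library and scaled to CPM (counts per 1000000), and 3 counts, the detection floor, corresponded to 1.36 to 2.91 CPM in tumors and 0.763 to 1.84 CPM in normal glands. This floor covers counting error only. The members are thus scarce miRNAs in this tissue, and many of the values that follow rest on fewer than 20 counts per library.

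Summed over all 38 members, the level was 241 ± 79.5 CPM (SD, n = 12) in tumors and 61.4 ± 14.3 CPM in normal glands, a ratio of 3.93. The highest normal gland reached 96.7 CPM and the lowest tumor 133 CPM, so the groups did not overlap. In tumors of weeks 6, 8, 10 and 12 the sum was 151 ± 16.3, 206 ± 43.1, 302 ± 29.1 and 307 ± 74.7 CPM (SD, n = 3). In normal glands the mean stayed between 57.0 and 64.8 CPM over the same weeks. The miR-466 family, with 131 ± 49.3 CPM in tumors and 19.4 ± 5.65 CPM in normal glands, had a ratio of 6.76. The ratios were 3.51 for miR-297, 2.65 for miR-669 and 2.36 for miR-467.

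The composition of the group also differed between tissues. miR-466 members made up 44.5% to 61.8% of the members' counts in tumors and 24.7% to 42.6% in normal glands, without overlap. miR-466b alone gave 18% to 29.3% of the members' counts in tumors and 9.17% to 20.4% in normal glands, and here the ranges overlapped. These shares sum to 100% within a library, so a larger share of one family lowers those of the others.

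**Figure D1:**
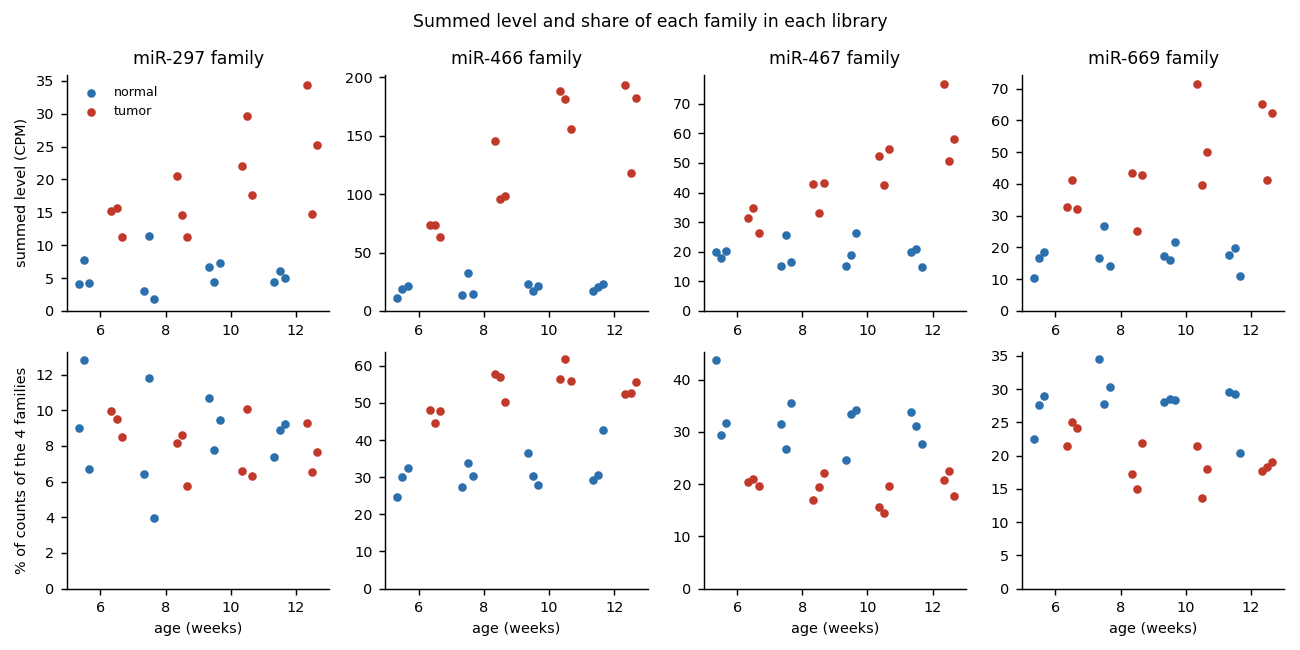
Upper row: summed CPM of each family in each library against age in weeks, with 3 tumors (red) and 3 normal glands (blue) per week. Lower row: the share of each family among the counts of the 4 families in percent. The miR-466 sums of all tumors, the lowest at 63.7 CPM, lie above those of all normal glands, the highest at 32.7 CPM.

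Week by week, tumors were set against normal glands in edgeR's quasi-likelihood test, with libraries scaled to one another by TMM, on the 237 miRNAs kept by the filter and with Benjamini-Hochberg adjustment over all of them. At an adjusted p-value under 0.05, 10 of the 15 tested members were higher in tumors at week 6, when 29.1% of all tested miRNAs were. Week 8 gave 7 of 15 (21.9% of all tested), week 10 gave 14 of 15 (32.9%) and week 12 gave 14 of 15 (29.1%). No member was lower in tumors in this test at any week, also at an unadjusted p under 0.05, while 29.5%, 13.5%, 27.4% and 21.5% of all tested miRNAs were called lower at the 4 weeks. In the contrast that averages the 4 weekly differences, fitted on all 24 libraries, 15 of 15 were higher (38.8%) and 0 lower (46.8%).

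The filter bears on these counts, because a member could pass it through the tumors alone. It asked for about 4.98 CPM in at least 3 libraries. On the normal glands alone, 7 of the 15 members passed it, namely miR-466b, miR-466c, miR-467a, miR-467d, miR-467e, miR-669a and miR-669c, against 220 of the 237 tested miRNAs. Of these 7, 5 were higher in tumors of week 6 (26.8% of the 220), 5 in those of week 8 (21.4%), 6 in those of week 10 (29.5%), 6 in those of week 12 (27.7%) and 7 in the mean of the weeks (35.5%). Their median log2 fold change in the mean of the weeks was 1.37, beside -0.33 over the 220.

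Libraries with the same replicate number deviated together at weeks 6, 8 and 10, and some with different numbers did so at weeks 6, 10 and 12. With the replicate number as a block in edgeR, 8 members were higher at week 6 (27% of all tested), 11 at week 8 (26.6%) and 15 at week 10 (33.8%). At week 8 the block thus moved the count from 7 to 11. The members gained there were miR-297a, miR-297b, miR-297c and miR-466d. None of them passed the filter on normal glands alone, so the filter can raise this count. At week 12, where same-numbered libraries did not all deviate together, the block gave 13 (27.8%).

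The weekly counts moved with single libraries. At week 6 they dropped to 5 without tumor replicate 1 and to 5 without tumor replicate 2. At week 8, 3 members remained past the threshold without tumor replicate 1, 4 without normal replicate 1 and 3 without normal replicate 3, and at week 12 the count was 9 without tumor replicate 1. The mean of the weeks gave 15 of 15 in every one of the 6 fits with one replicate number of one tissue omitted. These fits kept the filter of all 24 libraries, which can raise the counts. The 15 include the 7 members that passed the filter on normal glands alone. Both sequencing lanes were used at every week, and within lane 1 alone 15 of 15 members were higher in the mean of the weeks, as were 33.8% of all tested miRNAs. Within lane 2 alone 14 of 15 were (29.1%), the exception being miR-467e with a log2 fold change of 0.82 and an adjusted p of 0.0931 by edgeR.

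**Figure D2:**
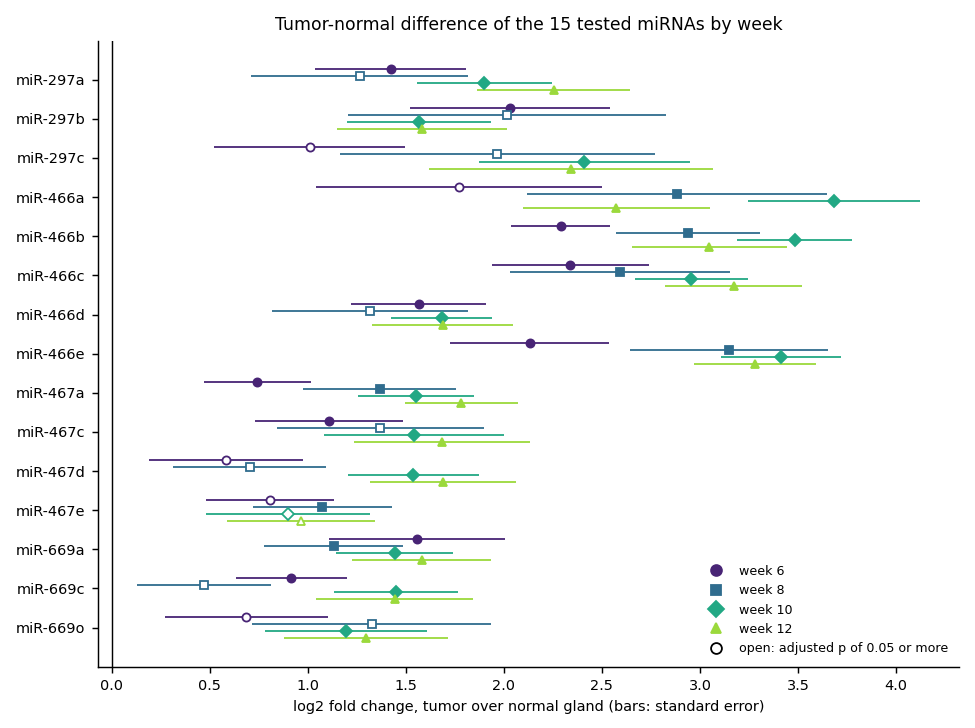
Log2 fold change of tumor over normal gland for the 15 tested members at weeks 6, 8, 10 and 12, with standard errors from edgeR's quasi-likelihood test. Filled symbols have an adjusted p under 0.05, and all 60 values lie to the right of 0, from 0.47 for miR-669c at week 8 to 3.68 for miR-466a at week 10.

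miR-466b was the most abundant member in tumors. Its level was 30.9, 29.8 and 30.9 CPM in the 3 tumors of week 6, 65.9, 49.4 and 44.9 CPM in those of week 8, 91.9, 78.6 and 81.1 CPM in those of week 10, and 101, 50.5 and 91.6 CPM in those of week 12. In the normal glands of the same weeks it was 5.13, 7.82 and 7.46 CPM, then 4.49, 11.9 and 7.38, then 7.63, 5.14 and 9.99, and then 5.75, 9.004 and 10.9. Every tumor thus lay above every normal gland, and the tumors of weeks 10 and 12, with 1 exception at week 12, lay above those of weeks 6 and 8. In the order of the weeks, its log2 fold changes were 2.29 ± 0.25 (standard error), 2.94 ± 0.37, 3.48 ± 0.29 and 3.05 ± 0.40, and the highest adjusted p among them by edgeR was 0.00189. miR-466b was the only member with at least 10 counts in every library.

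miR-466c, annotated at 3 hairpins interspersed among those of miR-466b, ranged from 11.9 to 41.9 CPM in tumors, with a median of 26.7, and from 1.23 to 8.43 CPM in normal glands, with a median of 3.54. Its log2 fold change was 2.34 ± 0.40 at week 6 and 3.17 ± 0.35 at week 12, and it passed the threshold at all 4 weeks. miR-466e, a single hairpin in the array, was at 5.71, 9.10 and 8.33 CPM in tumors of week 6 and at 27.6, 17.04 and 16.1 CPM at week 12. The corresponding normal glands had 1.03, 2.74 and 1.72 CPM and 1.64, 2.14 and 1.65 CPM. Its tumor libraries did not overlap with its normal libraries at any week, and the log2 fold changes were 2.13 ± 0.40, 3.15 ± 0.51, 3.41 ± 0.31 and 3.28 ± 0.31.

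miR-466a had 0 to 9 counts per normal library and 5 to 34 per tumor library. At week 6 its tumors had 5.23, 4.14 and 2.97 CPM and its normal glands 0, 0.782 and 2.58 CPM, and the adjusted p was 0.067. It was past the threshold at weeks 8, 10 and 12, with log2 fold changes of 2.88 ± 0.77, 3.68 ± 0.44 and 2.57 ± 0.48. Together with miR-466b, miR-466c and miR-466e it formed the 4 members whose 12 tumors all lay above all 12 normal glands, which held for 15.6% of all tested miRNAs. In the mean of the weeks these 4 had log2 fold changes of 2.74 to 3.01 and took ranks 5 to 8 of the 237. Of them, miR-466a and miR-466e did not pass the filter on normal glands alone.

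miR-466d, the remaining tested member of that family, had a smaller tumor-normal difference. Its tumors ranged from 5.95 to 17.04 CPM and its normal glands from 1.84 to 6.45 CPM, and the log2 fold change in the mean of the weeks was 1.58 ± 0.19, rank 31 of 237. It was higher in tumors at weeks 6, 10 and 12, with 1.32 ± 0.50 and an adjusted p of 0.0727 at week 8, or 0.0182 with the replicate block. The difference in size between miR-466d and the other 4 was not tested.

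**Figure D3:**
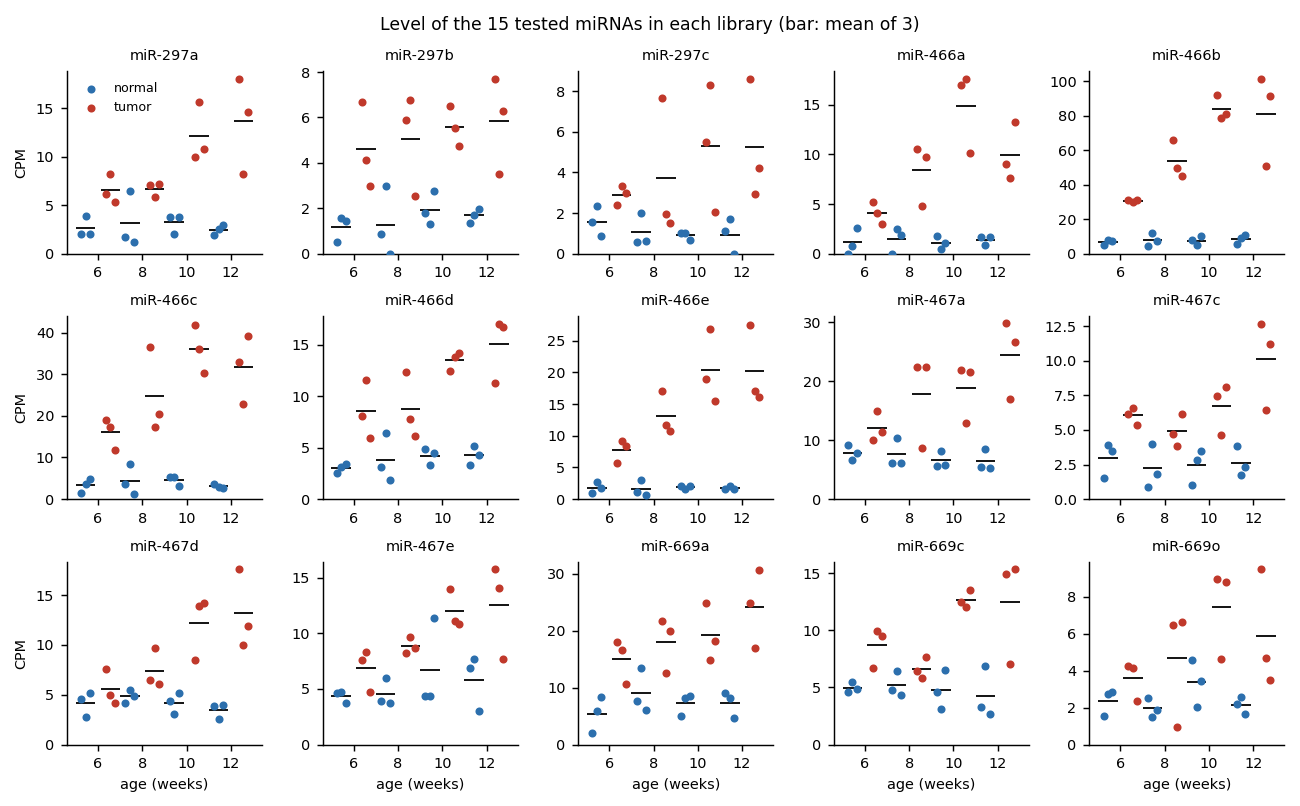
CPM of each of the 15 tested members in each library against age in weeks, with 3 normal glands (blue) and 3 tumors (red) per week and the mean of each group as a bar. Each panel has its own axis, which starts at 0. Tumors and normal glands are fully apart for miR-466a, miR-466b, miR-466c and miR-466e, while the ranges meet for the others.

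The 3 miR-297 members were lower in abundance. miR-297a ranged from 5.35 to 18.1 CPM in tumors, with a median of 8.25, and from 1.23 to 6.45 CPM in normal glands, with a median of 2.32. It was past the threshold at weeks 6, 10 and 12 with log2 fold changes of 1.42 ± 0.39, 1.90 ± 0.34 and 2.25 ± 0.39, and at week 8 it had 1.26 ± 0.55 with an adjusted p of 0.106, or 0.0383 with the replicate block. A normal gland at week 8, replicate 2, had 6.45 CPM and lay between the tumors of that week, which had 7.06, 5.81 and 7.14. miR-297b was past the threshold at the same 3 weeks and miR-297c at weeks 10 and 12, the latter from no more than 19 counts in any library. With the replicate block, both also passed at week 8, with adjusted p of 0.0127 and 0.0431 by edgeR.

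Among the miR-467 members, miR-467a was past the threshold at all 4 weeks. miR-467, as a family, is known for repression of thrombospondin 1, an inhibitor of blood vessel growth. The tumors of miR-467a had 9.99, 14.9 and 11.3 CPM at week 6 and 29.8, 17.04 and 26.6 CPM at week 12, and the normal glands 9.23, 6.64 and 7.74 CPM and 5.48, 8.58 and 5.29 CPM. The ranges met only at week 8, where a tumor with 8.72 CPM lay below a normal gland with 10.4 CPM. Its log2 fold change was 0.74 ± 0.27 at week 6, with an adjusted p of 0.0486 that became 0.0935 with the replicate block, and 1.78 ± 0.29 at week 12. miR-467c was past the threshold at weeks 6, 10 and 12, with an adjusted p of 0.0377 at week 6 that became 0.0505 with the block, and miR-467d at weeks 10 and 12, with 0.58 ± 0.39 at week 6 and 1.69 ± 0.37 at week 12.

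miR-467e had the lowest log2 fold change of the tested members in the mean of the weeks, 0.94 ± 0.19, and passed the threshold at week 8 alone, with an adjusted p of 0.0492. With the replicate block its adjusted p at week 10 was 0.0299 by edgeR, against 0.0976 without it. Its normal gland replicate 3 of week 10 had 11.4 CPM, above 2 of the 3 tumors of that week, and the other 2 normal glands had 4.32 and 4.37 CPM. In that library miR-467a had 5.86, miR-467c 3.45 and miR-467d 5.17 CPM, all within the range of the other normal glands.

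miR-669a, which is known to restrain muscle differentiation in cardiac progenitors, passed the threshold in each of the 4 weekly tests, where its log2 fold changes were 1.56 ± 0.45, 1.13 ± 0.36, 1.44 ± 0.30 and 1.58 ± 0.36. Its tumors ranged from 10.7 to 30.8 CPM and its normal glands from 2.05 to 13.4 CPM, and the ranges met at week 8. miR-669c was past the threshold at weeks 6, 10 and 12. At week 8 it had 6.47, 5.81 and 7.65 CPM in tumors and 4.78, 6.45 and 4.30 CPM in normal glands, with a log2 fold change of 0.47 ± 0.34 and an adjusted p of 0.294. miR-669o was past it at weeks 10 and 12, with a single count in tumor replicate 2 of week 8.

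Over the weeks, 5 members (miR-466b, miR-466c, miR-466e, miR-467a and miR-669a) were called higher at all 4, against 18.6% of all tested miRNAs. With the replicate block, applied at week 12 as well, 7 members were (20.7%). The block added miR-297a, miR-297b and miR-466d, none of which passed the filter on normal glands alone, and lost miR-467a. Without the block, 11 of 15 were called higher at 3 or more weeks (24.9%), and 14 of 15 at 2 or more (32.1%). The filter can raise these counts, and miR-466e, one of the 5, did not pass it on normal glands alone. All 3 tumors of week 6 lay above all 3 normal glands for 13 of 15 members (31.2% of all tested), those of week 8 for 6 (24.9%), those of week 10 for 14 (34.6%) and those of week 12 for 14 (33.8%). Among the 7 members that passed the filter on normal glands alone this held for 6 in week 6 (28.2% of the 220), for 4 in week 8 (24.1%), for 6 in week 10 (31.4%) and for 6 in week 12 (31.4%). The weekly median log2 fold changes of these 7 were 0.92, 1.13, 1.54 and 1.69, beside -0.21, -0.21, -0.27 and -0.24 over the 220 miRNAs. Over all 15 tested members they were 1.42, 1.37, 1.57 and 1.69, values that the filter can raise. Scaling by library totals alone in place of TMM moved the median of all miRNAs by -0.14, -0.13, -0.02 and 0.16 in the 4 weeks, and no member changed direction.

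Whether the levels changed during tumor growth was asked by comparing tumors of week 12 with tumors of week 6 in the fit of all 24 libraries. By the methods, samples of week 6 still contained normal gland cells, while carcinoma samples were mostly tumor cells. Stage and tumor content therefore cannot be told apart in this comparison. By edgeR, 4 of 15 members were higher at week 12, against 4.22% of all tested miRNAs, and 0 were lower (3.38%). They were miR-466b with a log2 difference of 1.40 ± 0.31 and an adjusted p of 0.0233, miR-466e with 1.40 ± 0.32 and 0.0233, miR-467a with 1.03 ± 0.29 and 0.0387, and miR-467d with 1.19 ± 0.35 and 0.0442. The fitted difference was above 0 for all 15 tested members, with a median of 0.88 beside -0.08 over all tested miRNAs. The filter can raise these values and the count of 4, because members could pass it through tumors of the later weeks. Of the 4, miR-466e did not pass it on normal glands alone. For the 7 members that did, the difference ranged from 0.52 for miR-669c to 1.40 for miR-466b. The calls were lost without tumor replicate 1 and without tumor replicate 3, where 0 members passed, while 6 passed without normal replicate 3 and 2 without normal replicate 2. The log2 differences stayed of similar size, with 1.47 for miR-466b, 1.18 for miR-466e, 0.98 for miR-467a and 1.51 for miR-467d without tumor replicate 1. Without tumor replicate 3 they were 1.28, 1.61, 0.92 and 1.06.

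In normal glands 0 of 15 members changed from week 6 to week 12, also at an unadjusted p under 0.05 by edgeR, when 5.49% of all tested miRNAs rose and 15.6% fell. A test of whether the gap between tumor and normal gland was another at week 12 than at week 6 passed for 0 members (0.422% of all tested), with 3 members and 13.1% of all tested at an unadjusted p under 0.05. A test for any variation of that difference among the 4 weeks passed for 0 members and 0 of the 237 miRNAs, with 0 members unadjusted. Any change over the 4 weeks within tumors passed for 0 members and 0 of the 237 in edgeR with TMM, with 6 members and 16.5% of all tested unadjusted. It passed for 2 members in edgeR with DESeq2 size factors (1.27% of all tested) and for 2 in the likelihood ratio test of DESeq2 (4.22%). Within normal glands it passed for 0 members by edgeR, with 0 unadjusted, and for 13.9% of all tested. The rise within tumors was therefore not shown to differ from the course in normal glands.

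Along the array, members of different families alternated. Hairpins of miR-467a, then miR-466b, and then miR-669a followed one another in repeating order, with some missing in places. In some repeats miR-466c or miR-466e stood in the place of miR-466b, or miR-467b or miR-467c in that of miR-467a. Neighbouring hairpins carried names with different log2 fold changes in the mean of the weeks, such as 1.37 for miR-467a, 2.95 for miR-466b and 1.44 for miR-669a. Since names with many copies pool their hairpins, the value drawn at each copy is that of the name.

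**Figure D4:**
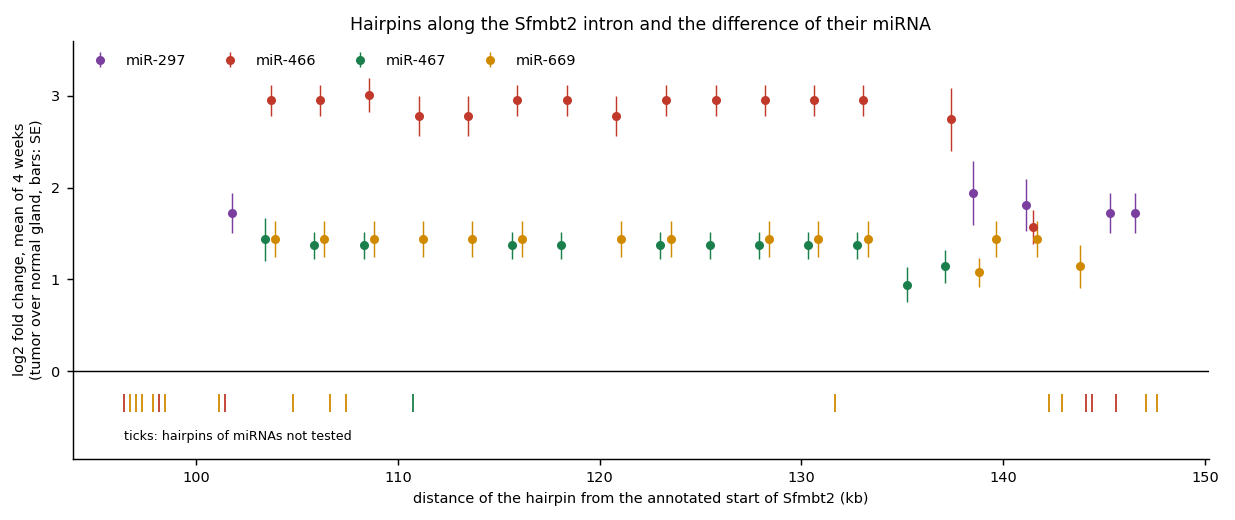
Log2 fold change in the mean of the 4 weeks (tumor over normal gland, bars are standard errors) of the member to which each hairpin in the Sfmbt2 intron belongs, against the distance of the hairpin from the annotated start of Sfmbt2 in kb. Hairpins of one name share 1 value, and ticks under the line mark members that were not tested. miR-466a, miR-466b, miR-466c and miR-466e lie between 2.74 and 3.01, and the other tested members between 0.94 and 1.94 among the same hairpins.

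The 14 members with counts below the filter, miR-466f, miR-466g, miR-466h, miR-466l, miR-467b, miR-669b, miR-669d, miR-669e, miR-669f, miR-669h, miR-669i, miR-669k, miR-669l and miR-669m, had 472 counts in all, 341 in tumors and 131 in normal glands. All 14 are in the Sfmbt2 intron. Pooled over the libraries of a tissue, 13 had more CPM in tumors, and miR-669k had 1 count in all, in a normal gland. The 13 include miR-669i with 1 count in each tissue and miR-669h with 3 counts in all, too few for a comparison. Their summed level was 8.56 to 31.5 CPM in tumors and 2.53 to 5.95 CPM in normal glands, without overlap. miR-669l had 77 counts in tumors and 25 in normal glands, or 3.93 and 0.716 CPM pooled. miR-466h, whose 5p arm is known to promote apoptosis in nutrient-starved cells, had 67 and 25, or 3.42 and 0.716 CPM. miR-669d had 52 and 29, or 2.65 and 0.830 CPM. When the 364 miRNAs with any count were all fitted, 8 of these 14 were called higher in the mean of the weeks and 0 lower, while 28.3% of the 364 were called higher. miR-466l, known to stabilise the mRNA of interleukin 10, had 5 counts, all in tumors, which is too few for a comparison.

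Markers of cell types moved with these differences. Of 10 listed epithelial miRNAs (the miR-200 family with miR-141 and miR-429, the miR-182, miR-183 and miR-96 cluster, miR-203 and miR-205), 8 were higher in tumors at each week by edgeR. At week 12, 1 of the 10 was lower. In the mean of the weeks 8 were higher and 1 lower, with a median log2 fold change of 2.03. The summed level of the 10 was 57068 to 84113 CPM in tumors and 12326 to 32502 CPM in normal glands. All 5 listed fibroblast and smooth muscle miRNAs were lower in tumors at each week, with 58298 to 125719 CPM in tumors and 172180 to 262659 CPM in normal glands, as was miR-126 of the endothelium, with 5413 to 18709 and 20737 to 35529 CPM. The leukocyte list had 1 of 3 tested miRNAs lower at each week and miR-223 listed at 0, and its sum was 1109 to 1931 CPM in tumors and 1860 to 3408 CPM in normal glands. In the mean of the weeks, 2 of 3 adipocyte, 3 of 3 skeletal muscle and 3 of 3 erythroid miRNAs were lower in tumors and 0 of them higher. The weekly tests were less uniform. In the order of the weeks, 0, 0, 1 and 1 adipocyte, 0, 1, 0 and 3 skeletal muscle, and 1, 0, 1 and 3 erythroid miRNAs were lower. At week 6, 1 adipocyte miRNA was higher in tumors. In whole tissue, more cells of a type and more RNA per cell cannot be told apart, and the part of cell composition in the members' differences was not tested.

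Set against the counts of the 10 epithelial miRNAs, the members gave 2.08 to 4.81 counts per 1000 in tumors, with a median of 3.29, and 1.82 to 4.39 in normal glands, with a median of 2.81, and the ranges overlapped. On this scale the ratio of the tumor mean to the normal mean was 2.04 for miR-466a, 2.23 for miR-466b, 1.97 for miR-466c and 2.42 for miR-466e. It was 0.845 for miR-466d, 0.965 to 1.12 for the miR-297 members, 0.540 to 0.766 for the tested miR-467 members and 0.626 to 0.759 for the tested miR-669 members. The direction therefore turned on this scale for miR-466d and the tested miR-467 and miR-669 members. It did not for miR-466a, miR-466b, miR-466c and miR-466e. The ratios of the miR-297 members were close to parity, and no direction is read from them. No member had all tumors above all normal glands on the epithelial scale. These ratios are a description with no test, and the scale was chosen after the data had been seen.

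**Figure D5:**
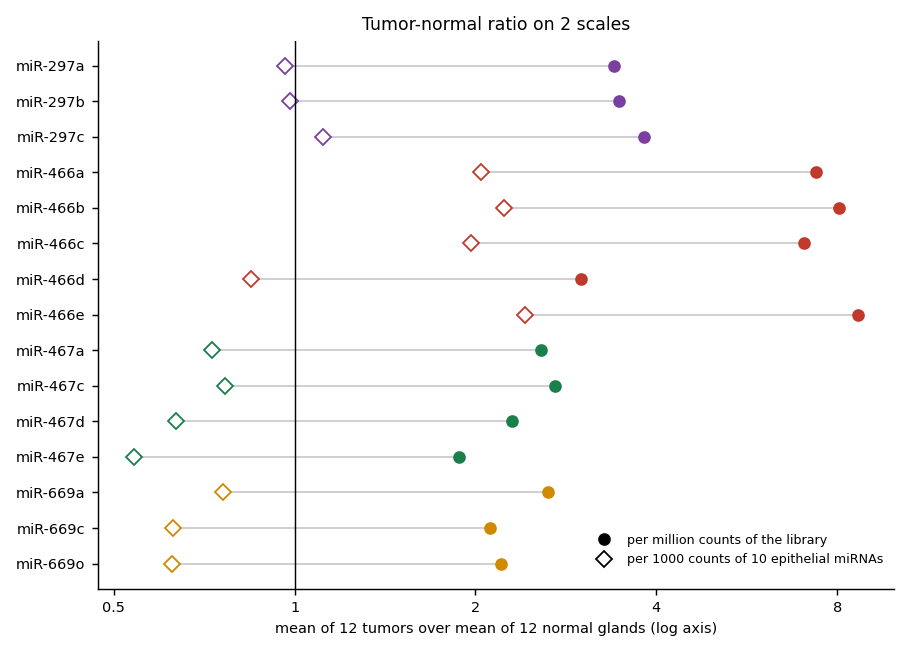
Ratio of the mean of 12 tumors to the mean of 12 normal glands for the 15 tested members, on a log axis. Filled circles use CPM and open diamonds use counts per 1000 counts of the 10 epithelial miRNAs. All circles lie above 1, and on the epithelial scale miR-466a, miR-466b, miR-466c and miR-466e lie between 1.97 and 2.42 while the other members lie between 0.540 and 1.12.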

How the data were processed

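Per the methods and labels, the authors extracted RNA from frozen mammary tissue, made small RNA libraries with a TruSeq kit, removed adaptor and barcode, aligned reads of mature miRNA length with Bowtie, and counted reads overlapping miRBase miRNAs. They deposited raw counts per miRNA name, with no normalization and with neither arms nor copies separated. The labels name mm9 and the methods mm10, so mm9 positions here describe the annotation. Treatment of multiply aligned reads is not given in the sources used here.

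Groups, weeks, replicates and lanes came from the labels. Each library is a different mouse. No 2 libraries of a group agreed within sampling noise. edgeR 4.0.16 in R 4.3.3 was run on 237 miRNAs kept by filterByExpr (minimum count 10) over 24 libraries, with TMM scaling, its quasi-likelihood test, and a threshold of 0.05 on p-values adjusted after Benjamini-Hochberg. Each week was fitted alone. The labels number replicates alike in both tissues but state no pairing. Deviations from the group means of same-numbered libraries had correlations of at least 0.196 at week 6, at least 0.341 in week 8 libraries, at least 0.489 in week 10 libraries and at least 0.0312 in week 12 libraries, with a mean of 0.406. The mean for different numbers was -0.184, but deviations from a group mean sum to 0, which pushes this value below 0. Some different numbers agreed as well, such as tumor 1 with normal 2 (0.583) and tumor 2 with normal 1 (0.59) at week 10. At week 12, so did tumor 1 with normal 3 (0.221) and tumor 3 with normal 1 (0.242). Replicate 3 was also the only replicate on lane 2 at weeks 6 and 8. All same-numbered pairs exceeded 0.1 except at week 12, where 2 did not. On this ground the numbers were taken to pair libraries at weeks 6, 8 and 10, and the pairing itself was not tested. The mean of the weeks, changes between weeks and interactions were fitted on all libraries. A standard error is the log2 fold change divided by the square root of F. Correlations used log2 CPM with a prior count of 2. The procedure was tested on simulated data. Alternatives included DESeq2 1.42.0, other scalings and filters, the lane, the replicate number as a block and leaving out replicates. Python 3.11.15 and matplotlib 3.10.9 made tables and plots.

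The members, the marker lists and the rule for named miRNAs (each member with counts is accounted for, tested members are given with values, and other miRNAs are the markers and the 5 most like the members' sum) were chosen with earlier results of these data known. The mature sequences of 7 members were matched in RefSeq.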

Additional observations from a re-analysis of the deposited data

How the results depend on the processing

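Over the 60 member-by-week log2 fold changes, 904 refits under the alternatives gave 782 with the same direction and side of the threshold, 93 no longer past it (61 of them with a replicate left out), 29 newly past it and 0 with the opposite direction. With at least 10 counts in every library, miR-466b was the only member left to test, and the counts became 1 at weeks 6, 8, 10 and 12, 1 in the mean of the weeks, 1 for week 12 against week 6 in tumors and 1 for any change over weeks in tumors, because fewer members were tested. At week 8, library sizes alone gave 3 members higher in tumors and a single fit of all libraries gave 13. Without the filter, 23 members were higher in the mean of the weeks and 2 were higher at week 12 than at week 6 in tumors. DESeq2 size factors and the likelihood ratio test of DESeq2 each gave 2 members that varied over the weeks in tumors. For the settings that kept the same members, the cause was not tested. Leaving out one replicate number of one tissue gave 5 to 9 members higher in week 6, 3 to 7 members in week 8, 11 to 14 members in week 10, 9 to 13 members in week 12, 15 to 15 in the mean of the weeks and 0 to 6 for week 12 against week 6 in tumors. These fits kept the filter of all 24 libraries, which can raise the counts of members. With the same replicates left out, the log2 ratio of the members' summed level ranged from 1.86 to 2.08.

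With the replicate block, 8, 11, 15 and 13 members were higher in tumors in weeks 6, 8, 10 and 12. The filter can raise these counts. At week 12, where the numbers did not pair the libraries by the check used, miR-669o had an adjusted p of 0.0706 with the block. The block was applied over all 4 weeks in this count, and the calls it changed at the other weeks are given beside the results.

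Low counts limit single members more than the families' sums, and members with many hairpins cannot be resolved by copy. Total RNA of whole tissue and 3 mice per group limit the rest.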

Other observations

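Of the miRNAs outside the 4 families, the 5 whose log2 CPM followed the members' summed level most closely over the 24 libraries were miR-330 (Spearman's rho 0.94), miR-200a (0.923), miR-141 (0.921), miR-301a (0.915) and miR-181c (0.913). All tumors lay above all normal glands for miR-330, miR-200a and miR-141, while the ranges met for miR-301a and miR-181c, and the libraries share scaling and depth, so the values are a description with no test. Within the 12 tumors alone rho was 0.811 for miR-330, 0.699 for miR-200a, 0.783 for miR-141, 0.797 for miR-301a and 0.811 for miR-181c. miR-200a and miR-141 are also on the epithelial list.

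The zeros in the deposited table were uneven over the genome. Of 56 names annotated on chromosome X alone, 55 were listed at 0 in all libraries, against 71 of 386 names, or 18.4%, on autosomes. All 38 members are annotated on autosomes.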
